A study of Mus musculus with 6 samples.

Results

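The uninjured side of a nerve-crush study in mice is described here: 3 of its 6 libraries, all 3 that the labels name as sham. They hold RNA of neurons cut by laser microdissection from dorsal root ganglia, the swellings beside the spinal cord where the cell bodies of sensory neurons sit. Ganglia came from lumbar levels 3, 4 and 5 on the operated side, and the labels describe the mice as C57Bl/6 males, adult, of 4 to 6 weeks. In sham surgery the sciatic nerve was exposed for 10 seconds without being crushed, and tissue was taken 7 days later. All 3 libraries thus come from animals that had an operation, and no genotype, transgene or drug is given by the labels. The sources used here do not state how many animals stand behind a library, nor that the 3 libraries come from separate animals, so the spread between them may be technical.

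Sensory neurons of these ganglia carry touch, position, temperature, itch and pain signals from the body to the spinal cord through a single split axon. They fall into classes. Peptidergic nociceptors make substance P and calcitonin gene-related peptide (CGRP), non-peptidergic nociceptors use the receptor Ret and the ATP-gated channel P2X3, and large myelinated neurons for touch and position carry heavy neurofilament. Satellite glia wrap each cell body closely, and Schwann cells line the axons, so a cut around a neuron can take some of both. A bulk library averages over all the neurons cut, and fewer cells of a class and less RNA per cell cannot be told apart in it.

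The values were FPKM, which are mapped fragments scaled to transcript length and library size, given by the authors for each isoform. A gene's level here is the sum over its isoforms. Because this sum grows when much of a gene is assigned to short isoforms, a second scale is given where it changes the picture. That scale divides the length-weighted sum by the merged length of the gene's exons, was added after the data were seen, and is called the merged-exon scale. Levels are listed in the order sham 1, sham 2 and sham 3, and errors are the SD over the 3 libraries. FPKM keeps no read counts, so depth is unknown, and for isoforms between 1 and 10 FPKM the half-width of the deposited interval was 31.3%, 31.9% and 31.5% of the value at the median. No gene was tested against another, since an exact sign-flip permutation over 3 libraries cannot give a 2-sided p below 0.25. Instead, 2 genes are called ordered where the lowest library of the higher gene exceeds the highest library of the lower gene.

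Sham 2 stood apart from the other libraries. Pearson's r of log2(FPKM + 1) over the 12218 genes with a mean of at least 1 FPKM was 0.996 between sham 1 and sham 3, but 0.977 between sham 1 and sham 2 and 0.981 between sham 2 and sham 3. Each r runs over genes of 2 libraries and is a description, since genes do not replicate one another. The difference followed transcript length. Genes whose transcripts averaged 500 to 1000 bases had a median log2 difference of 0.46 between sham 2 and the mean of the others, and 90.0% of these 807 genes were higher in sham 2. Among the 1494 genes with transcripts over 6000 bases the median difference was -0.26, and 19.1% were higher in sham 2. Sham 1 and sham 3 moved little against each other, as the plot by transcript length shows. The median SD of that pair was 3.62% of its mean, against a coefficient of variation of 11.6% over all 3. The part of RNA quality, library preparation or mapping in this was not tested. The mean without sham 2 is given beside each named gene whose mean it moved by more than 1.5 times.

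**Figure D1:**
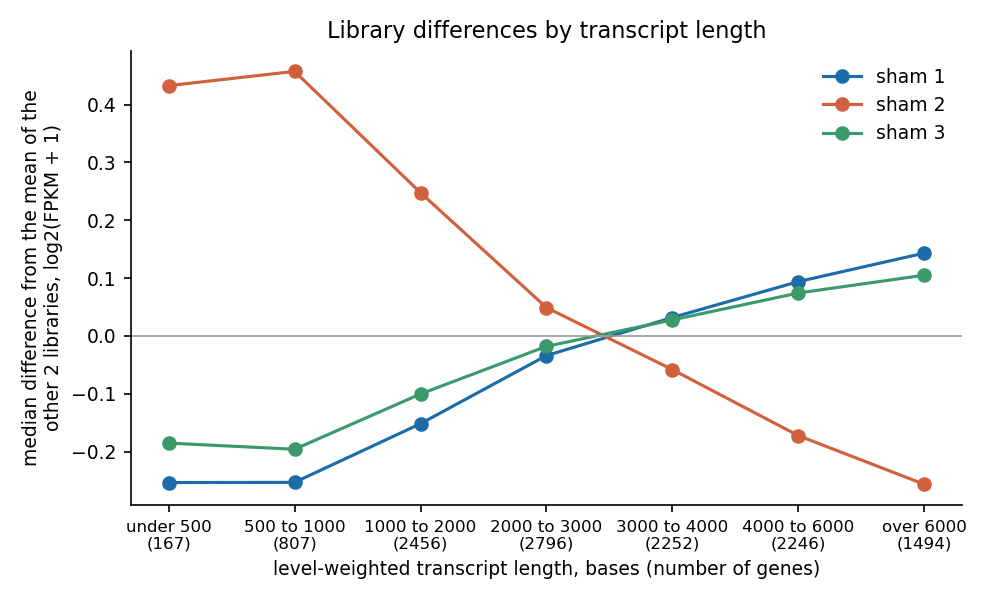
Median difference of each sham library from the mean of the other 2, on the log2(FPKM + 1) scale, against the level-weighted transcript length of the gene in bases, with the number of genes per bin in brackets. Sham 2 goes from 0.43 in the shortest bin to -0.26 in the longest, while sham 1 and sham 3 follow each other in the opposite direction. Their joint direction is fixed by construction, because each library is set against the mean of the other 2.

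The sham transcriptome was broad. A mean of at least 1 FPKM was found for 12218 of 17022 gene names, 5672 reached 10 FPKM, 607 reached 100 FPKM and 18 reached 1000 FPKM. In single libraries 12226, 12087 and 12288 genes reached 1 FPKM. Of the 12218, 11755 matched a RefSeq gene name, and 11379 of these are protein coding. The 10 most abundant genes held 4.30%, 5.52% and 4.41% of the summed FPKM, a mean of 4.75% ± 0.673 (SD, n = 3). It took 801, 649 and 799 genes to reach 50% of the sum, so no small set of genes dominated these libraries. The median gene of these 12218 stood at 8.81 FPKM, and this is the level against which the gene lists below are read. List medians also count measured members under 1 FPKM, which lowers them beside it.

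**Figure D2:**
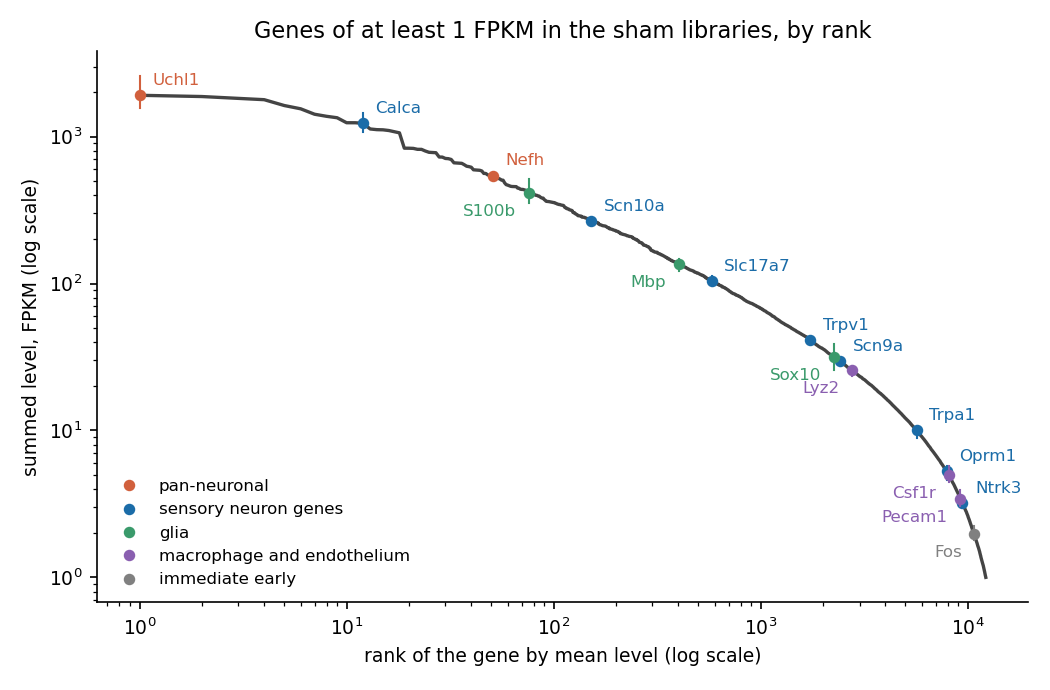
Mean summed level of each gene of at least 1 FPKM against its rank, both on log axes, with named genes as points and their lowest to highest library as vertical lines. Uchl1, Calca, Nefh and the glial gene S100b sit at ranks 1, 12, 51 and 76, Trpv1 and Scn9a at 1732 and 2422, and Csf1r, Pecam1 and Fos at 8100, 9209 and 10745.

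Neuronal genes led the order of levels. Uchl1, a ubiquitin hydrolase and a classical neuron marker, had 1579, 2594 and 1564 FPKM. Sncg, gamma-synuclein, had 1512, 2697 and 1415 FPKM. Tubb3, the neuronal beta-tubulin, had 1677, 2113 and 1677 FPKM. All 3 genes were highest in sham 2, and their ranges overlapped, so no order among them can be given. Peripherin (Prph), the intermediate filament of peripheral neurons, had 933, 1374 and 995 FPKM, and Calca, which encodes alpha-CGRP, had 1082, 1439.9 and 1176 FPKM. Nefm, the medium neurofilament subunit, varied least of these 6 genes, at 1307, 1349 and 1378 FPKM. In mm9 coordinates Uchl1 spans chr5:67065556-67079155, plus strand, Sncg chr14:35183530-35188119, minus strand, Tubb3 chr8:125934743-125945866, plus strand, Prph chr15:98882654-98900538, plus strand, Calca chr7:121775043-121865524, minus strand, and Nefm chr14:68737348-68749424, minus strand. Gene coordinates here run over all isoforms in the authors' models, minor ones included. The far bound of Calca is that of an isoform with 56.7 FPKM in sham 1 and 0 in sham 2 and sham 3. Its largest isoform spans chr7:121775043-121779703. The far bound of Prph is that of an isoform with 0.0363% of the gene.

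The promoters of 4 of these neuronal genes are shown because all 4 are among the 25 most abundant genes while their promoters differ. Their levels were not alike, since every library of Uchl1 and Tubb3 lay above every library of Calca and Prph. Each is the run of 250 bases before the RefSeq start in GRCm38.p6, written 5′ to 3′ on the gene's own strand. Capitals mark TATAA with its first base 40 to 21 bases before the start, searched on the gene's strand, and GGGCGG on either strand. Neither motif contains the other. The coordinates are chr15:99054924-99055173, plus strand, for Prph, chr8:123411303-123411552, plus strand, for Tubb3, chr7:114636358-114636607, minus strand, for Calca, and chr5:66675871-66676120, plus strand, for Uchl1.
Prph: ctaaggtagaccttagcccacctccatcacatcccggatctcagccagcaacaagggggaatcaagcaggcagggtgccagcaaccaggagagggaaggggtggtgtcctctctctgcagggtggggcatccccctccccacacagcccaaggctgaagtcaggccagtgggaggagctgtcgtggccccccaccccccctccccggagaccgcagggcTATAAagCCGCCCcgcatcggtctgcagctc
Tubb3: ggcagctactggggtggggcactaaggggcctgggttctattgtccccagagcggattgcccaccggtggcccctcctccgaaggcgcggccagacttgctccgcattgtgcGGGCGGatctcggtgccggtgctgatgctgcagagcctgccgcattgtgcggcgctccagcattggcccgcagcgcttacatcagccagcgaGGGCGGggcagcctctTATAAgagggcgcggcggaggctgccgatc
Calca: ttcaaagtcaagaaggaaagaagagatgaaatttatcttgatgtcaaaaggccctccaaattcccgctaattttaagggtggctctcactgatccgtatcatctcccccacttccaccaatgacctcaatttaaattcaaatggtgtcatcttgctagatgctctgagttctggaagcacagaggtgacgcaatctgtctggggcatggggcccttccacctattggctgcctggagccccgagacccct
Uchl1: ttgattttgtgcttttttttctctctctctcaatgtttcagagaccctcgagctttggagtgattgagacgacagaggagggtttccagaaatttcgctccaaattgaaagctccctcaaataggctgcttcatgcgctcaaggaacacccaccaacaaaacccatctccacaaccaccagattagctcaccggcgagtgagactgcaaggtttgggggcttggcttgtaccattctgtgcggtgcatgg
Prph and Tubb3 hold TATAA with its first base 31 and 30 bases before the start, which 3.51% of all 32851 promoters in the table do. GGGCGG occurs once in Prph, on the other strand, and at 2 places in Tubb3, and 32.7% of all promoters hold it within the same length. In Calca and Uchl1 neither motif is in these places. Tubb3 has 21 CpG pairs, against 7 in Prph, 7 in Uchl1 and 4 in Calca, with a median of 6 over all promoters. These counts describe the sequence only.

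Beside neuronal genes, the first 25 ranks held housekeeping and glial genes. Ubb, which encodes polyubiquitin, had a mean of 1547 ± 324 FPKM, though its isoforms lie on more than 1 chromosome and it is uncertain. Fth1, the ferritin heavy chain, had 1421 ± 303 FPKM, Gnas, a G protein alpha subunit, 1243 ± 132 FPKM, and the glycolytic enzyme Aldoa 1243 ± 225 FPKM. The 14-3-3 protein gene Ywhah had 1080.3 ± 33.3 FPKM and the kinesin light chain Klc1 834 ± 69.5 FPKM. Gm10123, a RefSeq pseudogene, had 1628 ± 270.1 FPKM and is uncertain, since a pseudogene can share its sequence with its parent gene. Tppp3, a tubulin-binding protein, had 1375 ± 412 FPKM, and the thymosin gene Tmsb4x, which encodes an actin-binding peptide, 1061 ± 323 FPKM. Also among the 25 were an unnamed locus, Skp1a, Ywhag and Txn1. Of the 25 genes 22 were highest in sham 2, and 23 were still among the first 25 without it. None of the 24 neighbouring pairs was ordered. For the 126 genes of 300 FPKM and over the median transcript was 1601 bases long. Of all genes of 1000 to 2000 bases 82.7% were higher in sham 2 than the mean of the others.

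Several of these levels are shared with a neighbour. No source used here says that the libraries kept strand. Where exons of 2 genes overlap, their fragments therefore cannot be told apart. For Apoe 75.8% of the exon bases also belonged to Tomm40, for Uchl1 53.9% to Apbb2, for Fth1 55.1% to Best1 and for Calca 64.2% to Calcb. On the merged-exon scale only 14 of the 25 genes remained among the first 25. Gm10123, Sncg, Apoe, Tubb3 and Tmsb4x then led, while Uchl1 stood at rank 12, Nefm at 46, Prph at 49 and Ctsb, a lysosomal protease, at 401. The rank of a gene thus depended on the scale.

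The labelled cell type was checked against its markers. The pan-neuronal list had 22 of 23 members measured, all of them at 10 FPKM or more and 12 at 100 FPKM or more. Its median was 299 FPKM (291, 329 and 276 in the libraries), above that of 99.0% of all genes of at least 1 FPKM. After the leading genes came Stmn2, a regulator of microtubule ends, with 777 ± 57.8 FPKM, the heavy neurofilament Nefh with 543 ± 14.1 FPKM, and the membrane protein Thy1 with 446 ± 38.8 FPKM. Snap25, a core protein of vesicle fusion, had 550.3, 341 and 368 FPKM, and sham 1 was the high library here. The RNA-binding proteins of neurons were lower, with Rbfox3 at 77.5 ± 7.06 FPKM and Elavl4 at 69.4 ± 5.07 FPKM, and alpha-internexin (Ina) was the lowest of the list at 11.7 ± 1.68 FPKM. Nefl was not analysed here.

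Genes of satellite glia were found in all libraries. Apoe, a lipid carrier made by satellite glia but also by other cells, had 1387, 2302 and 1664 FPKM. S100b, a calcium-binding protein of glia, had 355, 516 and 374 FPKM, with 88.6% of its exon bases shared with Dip2a. Fabp7, a fatty-acid binding protein of satellite glia, had 339, 350.1 and 381 FPKM. They stood at ranks 4, 76 and 99, and Apoe was ordered above the other two. Glul, the glutamine synthetase of satellite glia, reached 99.9 ± 5.14 FPKM, the transcription factor Sox10 of all peripheral glia 31.8 ± 6.67 FPKM and the potassium channel Kcnj10 14.7 ± 2.81 FPKM. Gfap, a filament of reactive glia, was near 0 at 0.0453, 0.318 and 0.113 FPKM (mean without sham 2 0.0794 FPKM). The satellite glia list had a median of 35 FPKM over 16 members, and its summed level was 2482, 3553 and 2846 FPKM, or 0.773%, 0.975% and 0.886% of the total.

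Myelin genes of Schwann cells were likewise present in all libraries. Pmp22, a membrane protein of peripheral myelin, had 377, 423 and 366 FPKM, and Mbp, myelin basic protein, 123, 146 and 139 FPKM. Pmp22 was ordered above Mbp, and both were among the 3 members of the list that reached 100 FPKM. The channel gene Scn7a, which some neurons also express, had 81.7 ± 12.5 FPKM, periaxin (Prx) 10.5 ± 0.809 FPKM, Mag 2.66 ± 0.449 FPKM and the myelin regulator Egr2 1.07 ± 0.122 FPKM. The list's median was 7.45 FPKM over 16 members, and it summed to 893, 978 and 917 FPKM. The pan-neuronal list summed to 11279, 14854 and 11031 FPKM in the same libraries. How many neurons and glia were cut was not given in the sources used here.

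Other cell types of the ganglion left weaker traces. Of 16 macrophage genes measured, 11 reached 1 FPKM, led by the lysozyme gene Lyz2 with 25.6 ± 2.01 FPKM and the complement gene C1qa with 13 ± 2.44 FPKM, then C1qc with 9.23 ± 0.999 and C1qb with 6.97 ± 1.87 FPKM, while the leukocyte gene Ptprc stood at 0.524 ± 0.105 FPKM. The list summed to 78.8, 86.4 and 75.1 FPKM. Among vessel genes the pericyte gene Rgs5 had 30.7 ± 3.04 FPKM, Egfl7 27.5 ± 7.12 FPKM, Ly6c1 18.5 ± 2.78 FPKM, Pecam1 3.42 ± 0.446 FPKM and Kdr 2.85 ± 0.445 FPKM, and the list summed to 106, 120.0 and 116 FPKM. Fibroblast and matrix genes were higher at the median, with 12 FPKM against 2.28 FPKM for macrophage and 3.42 FPKM for vessel genes. They were led by Vim at 250.01 ± 28.6 FPKM, Sparc at 211 ± 18.8 FPKM, both made by glia too, decorin (Dcn) at 73.2 ± 12.9 FPKM and Col1a2 at 29.1 ± 4.76 FPKM. Of the 14 members 9 reached 10 FPKM, while Col6a1, Pdgfra and Fn1 were lowest with means of 3.40, 0.862 and 0.108 FPKM. Haemoglobin alpha (Hba-a2) had 93.7, 146 and 145 FPKM, and the neutrophil gene S100a8 9.53, 4.37 and 15.5 FPKM. S100a8 was lowest in sham 2 and highest in sham 3, and S100a9, its partner, went the same way with 6.42, 3.04 and 12.1 FPKM. Haemoglobin beta (Hbb-b1) had 12.7, 18.7 and 22 FPKM. None of the 5 muscle and fat genes measured reached a mean of 1 FPKM, the highest being Acta1, an actin of skeletal muscle, with 0.760, 1.19 and 0.491 FPKM. The part of these cells in the levels below was not tested.

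**Figure D3:**
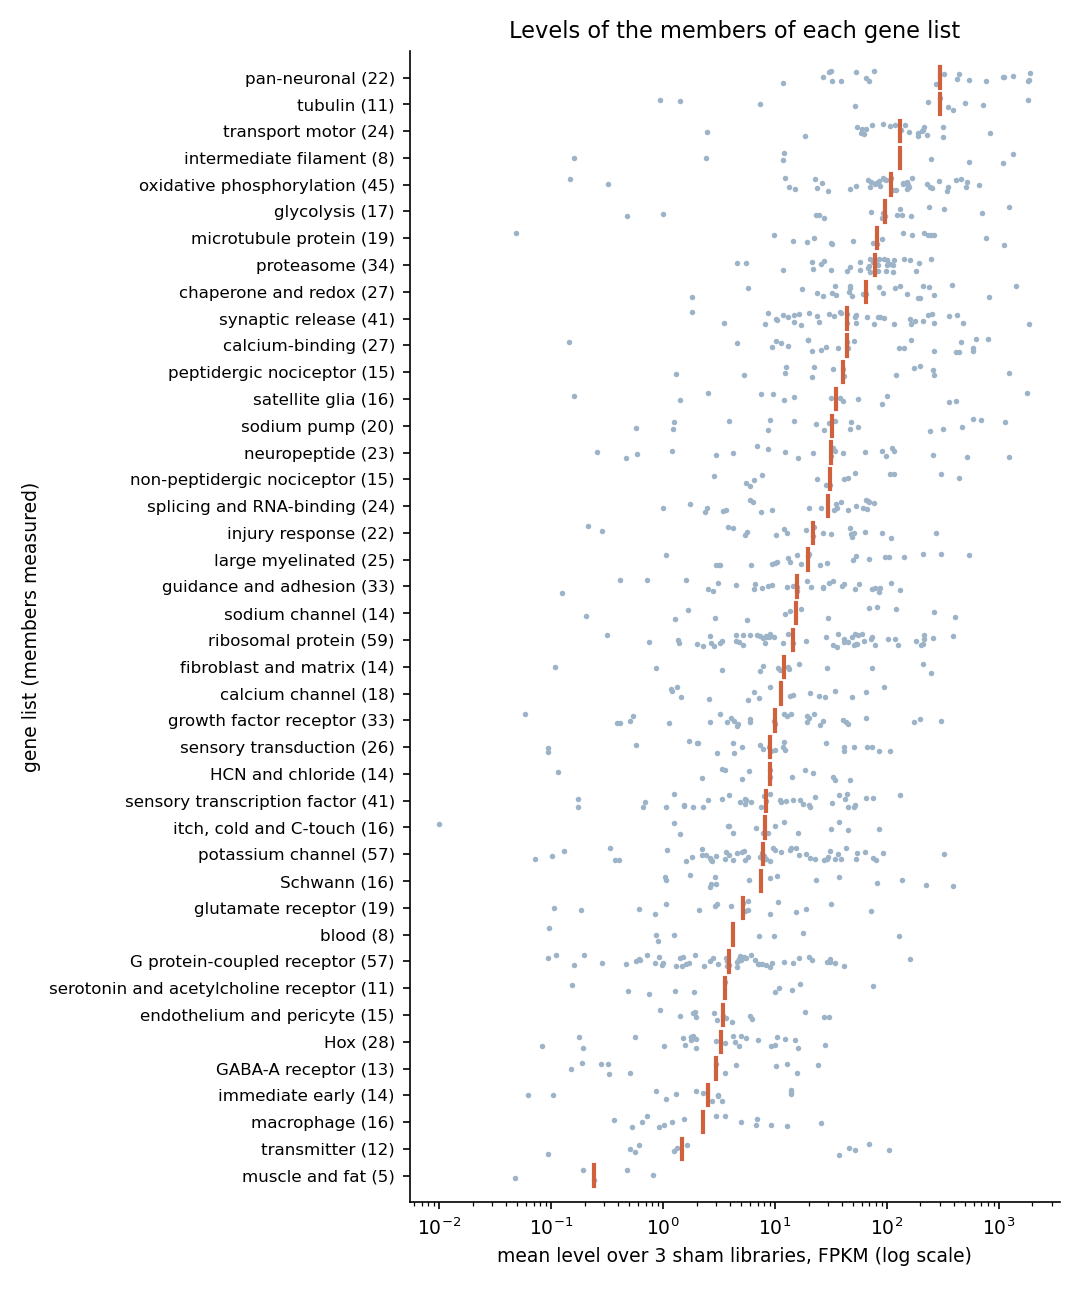
Mean level over the 3 sham libraries of every measured member of each gene list (points, log axis in FPKM, levels under 0.01 drawn at 0.01) with the median as a red bar. Pan-neuronal, tubulin, motor and energy genes lie highest, and sodium, potassium and calcium channels lie in the middle. Receptors for fast transmitters and G protein-coupled receptors lie low, and macrophage, transmitter and muscle genes lie lowest.

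Peptidergic nociceptor genes were among the strongest class markers. In mm9, the isoforms of Scn10a together span chr9:119511668-119687946, minus strand, those of Tac1 chr6:7504268-7513195, plus strand, and those of Trpv1 chr11:73047457-73074798, plus strand. The far bound of Scn10a is that of an isoform with 27.1, 0 and 23.9 FPKM. All 15 members of the list reached 1 FPKM, 13 reached 10 FPKM and 6 reached 100 FPKM, with a median of 40.8 FPKM. After Calca came Scn10a, the tetrodotoxin-resistant sodium channel Nav1.8 of nociceptors, with 259, 274 and 264 FPKM, and Tac1, the precursor of substance P, with 233, 314 and 235 FPKM. Scn10a hardly varied, and its range lay within that of Tac1. Tmem233, a small membrane protein, had 197 ± 17.7 FPKM. The heat and capsaicin channel Trpv1 had 40.3, 42 and 41.2 FPKM. Gfra3, the artemin receptor, stood at 22.4 ± 0.428 FPKM, and the mu opioid receptor gene Oprm1 at 5.26 ± 0.587 FPKM.

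Non-peptidergic nociceptor genes were close behind, with a median of 31 FPKM over 15 of 17 members. Scg3, a granule protein of many secretory cells, led with 395, 531 and 413 FPKM, though with 44.7 FPKM on the merged-exon scale. Ret, the signalling receptor of the GDNF family, which large neurons also express, had 286, 343 and 284 FPKM, and Cd55, a complement regulator, 124, 112 and 113 FPKM. P2rx3 had 109, 108 and 100.3 FPKM, the plexin Plxnc1 56.6, 46.4 and 52.4 FPKM, and the receptor Mrgprd, a marker of skin-innervating nociceptors, 47.2, 32.2 and 44.5 FPKM. P2rx3, at chr2:84835726-84879134, minus strand, was ordered above Plxnc1, while Plxnc1 and Mrgprd, at chr7:152500724-152510609, plus strand, overlapped. Mrgpra3, an itch receptor, reached 7.73 ± 0.663 FPKM but only 1.01 FPKM on the merged-exon scale.

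Genes of itch, cold and low-threshold C fibres were lower, with a median of 8.24 FPKM. Tyrosine hydroxylase (Th), which marks C-fibre touch neurons, had 36.1, 46.8 and 29.2 FPKM. The peptide genes of itch neurons were Nts with 31.5 ± 4.88 FPKM, Nppb with 8.69 ± 1.14 FPKM and Sst with 4.23 ± 1.76 FPKM. The cold channel Trpm8 had 7.54, 6.92 and 8.90 FPKM, and its range overlapped those of Nppb and Trpa1. Il31ra, an itch cytokine receptor, had 3.83 ± 0.0778 FPKM.

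Genes of large myelinated neurons had a median of 19.7 FPKM over 25 of 26 members. Nefh led with 532, 559 and 537 FPKM. Vamp1, a vesicle protein, had 216, 183 and 227 FPKM, and the calcium buffer parvalbumin (Pvalb), a marker of muscle-spindle neurons, had 117, 162 and 144 FPKM, with 74.4% of its exon bases shared with Ift27. The fast potassium channel Kcna1 had 59.7, 39.7 and 59 FPKM, and osteopontin (Spp1) 53.4, 34.1 and 61.7 FPKM. Sham 2 was the low library for both of these last genes. The proprioceptor genes Ntrk3 and Runx3 stood at 3.20 ± 0.217 and 1.07 ± 0.370 FPKM, near the lower end of the list.

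Among transmitter genes those for glutamate were highest. Vesicles are loaded with glutamate by Slc17a7 (VGLUT1), Slc17a6 (VGLUT2) and Slc17a8 (VGLUT3). Slc17a7 had 103, 96 and 112 FPKM, Slc17a6 77.7, 62.2 and 69.2 FPKM and Slc17a8 1.32, 1.03 and 1.38 FPKM. The 3 were ordered in every library, and Slc17a7 held 59.4% ± 2.46 of their sum, or 66.7% ± 2.57 on the merged-exon scale. Glud1, glutamate dehydrogenase, had 51.5 ± 0.367 FPKM. Gad1, which makes GABA, was listed at 0 in sham 1 and at 0.202 and 0.0789 FPKM in sham 2 and sham 3, with a mean without sham 2 of 0.0395 FPKM. Tryptophan hydroxylase Tph2 stood at 0.566 ± 0.0747 FPKM. Gad2, Slc32a1 and Chat were not analysed here.

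Neuropeptides ranged from Calca, among the most abundant genes, to members under 1 FPKM. Of 23 precursors and granule proteins measured, 20 reached 1 FPKM, 15 reached 10 FPKM and 5 reached 100 FPKM. Calca held 97.3% ± 0.405 of the sum of the CGRP genes, with Calcb, the beta-CGRP gene, at 33.4, 32.6 and 33.7 FPKM. Most exon bases of Calca also belong to Calcb in the authors' models, so this share is uncertain. Pcsk1n, an inhibitor of prohormone cleavage, had 411, 783 and 371 FPKM, and 17 of the 20 members of at least 1 FPKM were higher in sham 2. Their median transcript length was 1116 bases, and of all genes of 1000 to 2000 bases 82.7% were higher in sham 2. The granule protein Scg2 had 116 ± 8.17 FPKM. Neuromedin B (Nmb) had 92.7, 147 and 93.3 FPKM, PACAP (Adcyap1) 41.4, 44.4 and 36.6 FPKM and neuropeptide Y (Npy) 21.4, 28.4 and 16.2 FPKM. Adcyap1 lay below every library of Nmb and above every library of Npy. Cholecystokinin (Cck) with 0.592 ± 0.0718 FPKM and gastrin-releasing peptide (Grp) with 0.464 ± 0.136 FPKM did not reach 1 FPKM.

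Voltage-gated sodium channels set the excitability of these neurons, with pore-forming alpha subunits and small beta subunits. Among alpha subunits Scn10a was followed by Scn11a, the persistent channel Nav1.9 of nociceptors, with 122, 124 and 116 FPKM, and Scn7a with 94.2, 69.3 and 81.5 FPKM. Scn9a, the nociceptor channel Nav1.7, had 31.2, 27.4 and 30.2 FPKM. Scn1a, the Nav1.1 gene, had 16.3, 15.8 and 19 FPKM, and Scn8a, the Nav1.6 gene of nodes of Ranvier, 14, 10.3 and 16.5 FPKM. Scn2a1, Scn4a and Scn3a lay between 1.29 and 2.91 FPKM. Of the 13 neighbouring pairs 9 were ordered; Scn7a overlapped the beta subunit Scn4b, Scn1a overlapped Scn8a, Scn8a overlapped the beta subunit Scn3b, and Scn4a overlapped Scn3a. Scn2a1 and Scn4a changed places on the merged-exon scale.

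The shares within the alpha subunits depended on the scale. Scn10a held 49.7% ± 2.28 of their summed level, Scn11a 22.6% ± 0.927 and Scn9a 5.54% ± 0.282. On the merged-exon scale Scn10a held 32.8% ± 1.15, Scn11a 32.1% ± 2.59 and Scn9a 8.20% ± 0.548, so the first 2 no longer differed beyond their spread. Scn10a and Scn11a led the alpha subunits on both scales, and Scn7a came next. Of the exon bases of Scn1a 98.6% also belonged to Scn9a, of which 1 isoform runs through it. The Scn1a level is therefore uncertain, as are the 5.02 of 29.6 FPKM that this isoform adds to Scn9a.

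**Figure D4:**
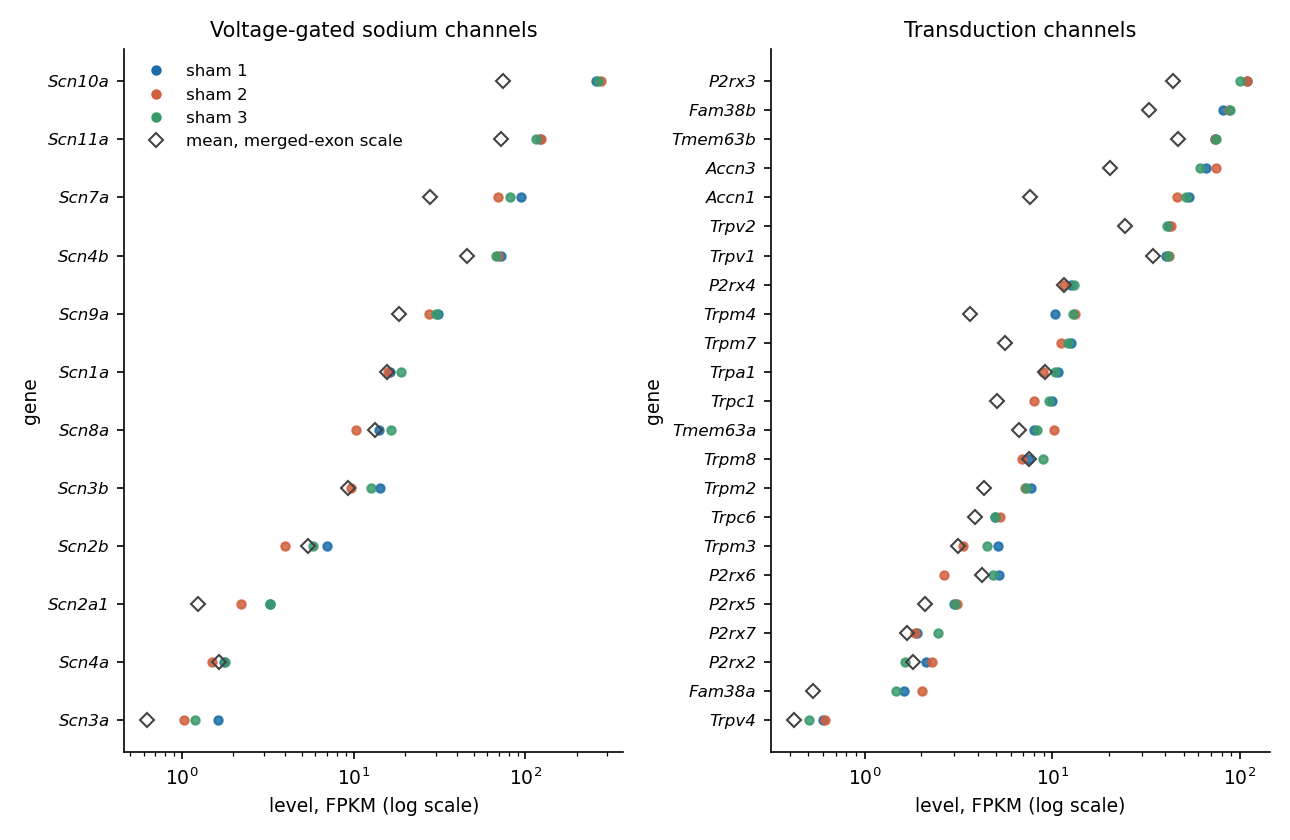
Levels of 12 voltage-gated sodium channel genes (left) and of sensory transduction channels (right) in each sham library (filled circles, log axis in FPKM), with the mean on the merged-exon scale as open diamonds. The libraries lie close together for most genes, and the open diamonds lie far to the left of the circles for Scn10a, Accn1 and Trpm4.

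Transduction channels turn physical and chemical stimuli into current. P2rx3 was highest, and Piezo2, the main touch channel, which the files name Fam38b, followed with 81.1, 86.9 and 88.7 FPKM. Piezo1 (Fam38a) had 1.61, 2.01 and 1.48 FPKM, far below it. Tmem63b, of a family of osmosensitive channels, had 74, 73.9 and 74.7 FPKM. On the merged-exon scale Tmem63b and P2rx3 overlapped, with means of 46.6 and 44 FPKM, and both lay above Fam38b, with 32.6 FPKM. The acid-sensing channel ASIC3 (Accn3) had 66.2, 74.6 and 60.9 FPKM, with 51.2% of its exon bases shared with Cdk5, and ASIC2 (Accn1) had 53.7, 46.3 and 51.4 FPKM. On the merged-exon scale Accn1 fell to 7.58 FPKM. Trpv1 and Trpv2, a relative found in large neurons, had nearly the same levels, with Trpv2 at 42, 42.8 and 40.7 FPKM. Trpa1, the channel for mustard oil and other irritants, had 10.7, 8.93 and 10.4 FPKM, below every library of Trpv1. Trpm3, a heat-gated channel, stood at 4.34 ± 0.906 FPKM and Trpv4 at 0.575 ± 0.0580 FPKM. Of 26 members measured 23 reached 1 FPKM and 12 reached 10 FPKM.

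Potassium channels were many, with a list median of 7.76 FPKM, beside 8.81 FPKM for the median gene of at least 1 FPKM. The list median again includes members under 1 FPKM, so it is not ranked against the median gene. Of 57 members measured 51 reached 1 FPKM, 24 reached 10 FPKM and 1 reached 100 FPKM. That gene was Kcnab2, an auxiliary beta subunit, with 318, 340.4 and 309 FPKM, and 68.8% of its exon bases were shared with Chd5. Kcnip3 and Kcnip4, calcium-sensing partners of A-type channels, had 93.3 ± 8.64 and 80.9 ± 6.81 FPKM. Kcnd1, an A-type pore subunit, had 73.8, 79.7 and 72.7 FPKM. Kcnq3, a pore subunit of the M-current that holds neurons quiet, stood at 2.73 ± 0.387 FPKM. The leak channel Kcnk1 had 39.3 ± 1.99 FPKM, and Kcnk18, the leak channel TRESK of sensory neurons, 2.67 ± 0.150 FPKM. Of 56 neighbouring pairs 7 were ordered without overlap, and 19 had the same order in all 3 libraries.

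Among calcium channel genes the auxiliary subunits were highest. The beta subunit Cacnb3 had 94.8 ± 5.73 FPKM, the gamma-type subunit Cacng7 65.3 ± 1.88 FPKM, and Cacna2d1, the alpha2delta subunit that binds gabapentin, 57.7, 39.7 and 50.7 FPKM. Cacna1b, the N-type pore of synaptic release, had 32.5, 25.7 and 26.8 FPKM, and Cacna1h, the T-type pore of touch neurons, 14, 15.3 and 11.3 FPKM. Cacna2d1 held 52.8% ± 5.90 of the alpha2delta genes measured and Cacna2d3, with 32.2, 38.5 and 33.2 FPKM, 37.5% ± 6.53. Hcn2, a pacemaker channel of nociceptors, had 47.7, 50.04 and 43.7 FPKM and held 60.3% ± 5.99 of the pacemaker genes. The chloride transporter Clcn3 had 34.8 ± 4.45 FPKM and Ano3, a member of the anoctamin family, 22.1 ± 6.77 FPKM. The chloride importer Slc12a2 had 35.7, 26.1 and 37.1 FPKM, and the exporter Slc12a5, which is typical of central neurons, 0.184, 0.123 and 0.0363 FPKM. No library of Slc12a5 reached 1 FPKM.

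Receptors for fast transmitters were measured at low to moderate levels. Of 13 GABA-A receptor genes 4 reached 10 FPKM, among them Gabrg1 with 11.4, 6.29 and 12.8 FPKM. The 7 GABA-A genes of at least 1 FPKM were all lower in sham 2 than the mean of the others, and the median transcript of the 7 was 3905 bases long. Their median log2 difference was -0.30, against -0.06 over all genes of 3000 to 4000 bases, of which 39.3% were higher in sham 2. The other 6 measured, among them Gabrd and Gabrb2, stayed under 1 FPKM. Grik1, a kainate receptor of nociceptors, led the glutamate receptors with 74.1, 76.1 and 69 FPKM, and was ordered above Grin1, the obligatory NMDA receptor subunit, with 31.3, 32.8 and 30.5 FPKM. Grin1 stood at 6.71 FPKM on the merged-exon scale, and 51.5% of its exon bases were shared with Anapc2. The AMPA receptor gene Gria4 had 19.2 ± 3.56 FPKM and the metabotropic receptor gene Grm7 15.4 ± 1.55 FPKM. Htr3a, the serotonin-gated channel, had 76.1, 81.4 and 69.6 FPKM, ordered above all nicotinic subunits. The nicotinic genes Chrna7 and Chrna6, with 16.9 ± 4.45 and 14.4 ± 1.52 FPKM, overlapped, and Chrnb2 followed with 10.8 ± 0.319 FPKM, with 67.3% of its exon bases shared with Adar.

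Among 57 G protein-coupled receptors measured, 43 reached 1 FPKM and 1 reached 100 FPKM. That was Gabbr1, a subunit of the GABA-B receptor, with 166, 147 and 169 FPKM, above its partner Gabbr2 with 36.9, 22.1 and 29.3 FPKM. After it and Mrgprd came F2rl2, a protease-activated receptor, with 34.2 ± 2.37 FPKM, the lysophosphatidic acid receptors Lpar1 and Lpar3 with 31.3 ± 2.62 and 31 ± 1.13 FPKM, and the prostacyclin receptor Ptgir with 21.4 ± 1.40 FPKM. By mean level the opioid receptors came as Oprl1 with 6.67 ± 1.85, Oprm1 with 5.26 ± 0.587 and Oprd1 with 3.13 ± 0.408 FPKM. Oprk1 had 0.391 and 0.0869 FPKM in sham 1 and sham 3 and was listed at 0 in sham 2. Oprl1 and Oprm1 overlapped.

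Among growth factor receptors Ret led and was ordered above Ngfr, the shared neurotrophin receptor, with 208, 195 and 197 FPKM. On the merged-exon scale this order turned, with 111 FPKM for Ret and 187 FPKM for Ngfr. Ntrk2, the BDNF receptor, had 26.2, 21.6 and 28.8 FPKM, and Ntrk3, the NT-3 receptor, 3.15, 3.01 and 3.44 FPKM. Ntrk2 was ordered above Ntrk3. Among the binding partners of Ret, Gfra2, the neurturin receptor, held 41.7% ± 3.22, Gfra3 21% ± 1.3, Gfra1, the GDNF receptor, 19% ± 4.23 and Gfra4 18.3% ± 3.46. The last 3 shares overlapped between libraries. The fibroblast growth factor receptor Fgfr1 had 64.6 ± 4.23 FPKM. The cytokine receptors Cntfr and Il6st stood at 43.1 ± 3.76 and 40.4 ± 7.43 FPKM.

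Transcription factors of sensory identity had a list median of 8.33 FPKM, beside 8.81 FPKM for the median gene of at least 1 FPKM. Members under 1 FPKM count in the list median only, so no order of these medians is given. Of 41 members 37 reached 1 FPKM and 19 reached 10 FPKM. Hopx, a homeodomain-only protein, was highest with 126, 149 and 116 FPKM, and Isl2, a LIM homeodomain factor, had 65.6, 89.8 and 68.7 FPKM, or 18.2 FPKM on the merged-exon scale. Isl1 and Pou4f1 (Brn3a), which are made by nearly all neurons of the ganglion, had 42.4, 41 and 43.4 FPKM and 47.3, 61.8 and 48.3 FPKM. Tlx3, a selector of sensory fate, had 49.9, 92.4 and 53.1 FPKM, and Prdm12, a factor of nociceptors, 58.6, 27.2 and 47.2 FPKM. Tlx3 was high and Prdm12 low in sham 2. Runx1, a factor of nociceptors, had 11.4 ± 2.99 FPKM against 1.07 ± 0.370 FPKM for Runx3. The early neurogenic gene Neurod1 stood at 0.175 ± 0.0945 FPKM.

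Hox genes record the position of a ganglion along the body axis. Of 28 measured, 24 reached 1 FPKM and 5 reached 10 FPKM. Hoxa9 was highest with 29.4, 27 and 28.3 FPKM and was ordered above Hoxa7 with 13.9, 19.8 and 14.6 FPKM. Hoxa10 had 14.8, 14.9 and 16 FPKM, Hoxb5 12.4 ± 1.39 FPKM and Hoxb9 10.4 ± 1.09 FPKM. Group 10 genes were present in 3 clusters, with Hoxc10 at 5.58 ± 0.796 FPKM and Hoxd10 at 6.70, 1.08 and 2.90 FPKM beside Hoxa10. Of group 11, Hoxc11 stood at 1.24, 0.0435 and 0.415 FPKM and Hoxa11 at 0.141, 0.0704 and 0.0380 FPKM. The means of Hoxd10, Hoxc11 and Hoxa11 rested on sham 1, the highest library for each. Neighbouring Hox genes share exons in the authors' models, with 99.5% of the exon bases of Hoxb6 within Hoxb5, so single levels within a cluster are uncertain.

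The medians of the intermediate filament, tubulin, microtubule protein and transport motor lists lay above the median gene, though single members such as Dcx, a protein of migrating neurons, with 0.0490 ± 0.0474 FPKM, Tubb6 with 0.940 ± 0.153 FPKM and Nes with 2.45 ± 0.254 FPKM lay below it. After Nefm and Prph, which overlapped, Nefh came next among intermediate filaments. Prph held 33.5%, 41.7% and 34.1% of the summed Nefm, Prph, Nefh and Ina. On the merged-exon scale Nefm, Nefh and Prph were alike, with 350.3, 343 and 342 FPKM. Tubb3 was ordered above all other tubulins measured, and Tubb4 had 301, 304 and 291 FPKM. Tubb5, Tubb2a and Tubb2b lay between them with 726 ± 111, 505 ± 128 and 394 ± 58.9 FPKM. Tuba1a, Tuba1b and Tuba1c were not analysed here. Microtubule regulators had a median of 81.3 FPKM, with Stmn3 at 1113 ± 268 FPKM, Stmn1 at 262 ± 76.1 FPKM, and Mtap1b, a long transcript of growing axons, at 294, 142 and 304 FPKM. Mtap1b was low in sham 2.

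Motors had a median of 132 FPKM over 24 members, above that of 96.6% of genes, and 15 reached 100 FPKM. Klc1 led with 801, 914 and 788 FPKM and was ordered above the dynein light chain Dynll2 with 327, 316 and 308 FPKM. The kinesin Kif5a, a motor of long axons, had 324, 308 and 313 FPKM, but 52 FPKM on the merged-exon scale. The dynactin subunit Dctn1 had 214, 250.4 and 218 FPKM and the dynein heavy chain Dync1h1 119.8, 115 and 118 FPKM.

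Synaptic release genes were all measured, and all 41 reached 1 FPKM. Sncg led, followed by the complexin Cplx1 with 448, 527 and 477 FPKM and by Snap25. Synaptotagmin genes differed widely, with Syt11 at 362 ± 49.9 FPKM, Syt4 at 94.8 ± 7.53 FPKM, the fast sensor Syt2 at 53.5 ± 1.81 FPKM and Syt1 at 30.2 ± 5.85 FPKM.

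Calcium-binding genes had a median of 44.1 FPKM over 27 members, and 11 reached 100 FPKM. S100a10, a partner of annexin A2, led with 668, 1051 and 675 FPKM, and Anxa2 had 567, 742 and 565 FPKM. Anxa5, another annexin gene, had 589, 644 and 542 FPKM. All 3 were highest in sham 2.

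Guidance and adhesion genes were lower, with a median of 15.9 FPKM over 33 members. L1cam, an adhesion protein of axons, had 152, 116 and 127 FPKM, and the cell adhesion gene Cadm3 115, 98.5 and 111 FPKM. Itga7 and Itgb1, which encode integrin subunits, had 86.7 ± 6.14 and 85.4 ± 8.14 FPKM. Of the 30 members of at least 1 FPKM 5 were higher in sham 2, and the median transcript was 4598 bases long. Of all genes of 4000 to 6000 bases 24.0% were higher in sham 2. Among splicing and RNA-binding genes, beside Rbfox3 and Elavl4, Mbnl2 had 90.7, 30.9 and 81.9 FPKM and was low in sham 2, while Hnrnpa2b1 had 72, 65.3 and 63.7 FPKM.

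Sodium pumps restore the ion gradients that firing uses. The beta subunit Atp1b1 had 720.0, 642 and 736 FPKM. The pump modulator Fxyd2, a marker of nociceptors and other sensory neurons, had 483, 825 and 443 FPKM, and Fxyd7 411, 571 and 421 FPKM. Fxyd2 and Fxyd7 were highest in sham 2, while Atp1b1 was lowest there.

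Genes of energy metabolism were high in all libraries. Of 45 oxidative phosphorylation genes measured 43 reached 10 FPKM and 24 reached 100 FPKM, with a median of 109 FPKM. Atp5b, a subunit of the ATP synthase, led with 632, 724 and 635 FPKM, followed by Cox4i1 with 520.0 ± 139.5, Atp5g3 with 506 ± 118 and Cox6b1 with 457 ± 149 FPKM. Of the 43 members of at least 1 FPKM 42 were higher in sham 2, and their median transcript was 1026 bases long. Of all genes of that length, 1000 to 2000 bases, 82.7% were higher in sham 2. The list's median was 94.2, 137 and 95.4 FPKM. Glycolysis genes had a median of 96.5 FPKM, with Pkm2, the pyruvate kinase, at 705, 711 and 715 FPKM, the neuronal enolase Eno2 at 322 ± 19.3 FPKM and Tpi1 at 240.2 ± 51.4 FPKM. Gapdh was listed at only 0.991 ± 0.240 FPKM; it has many near-identical copies in the genome, so this level is uncertain.

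Ribosomal protein genes had a median of 14.4 FPKM, not far above the median gene, with a range from 0.317 FPKM for Rpl9 to 395 FPKM for Rpl41. Rpl8 and Rplp1 had 215 ± 76.3 and 213 ± 94.2 FPKM. These genes are short and have many processed copies, and 18 of the 77 listed were not analysed here, so the list is uncertain as a whole. Of the 57 members of at least 1 FPKM 56 were higher in sham 2, where the median was 24.1 FPKM against 12.6 and 12 FPKM. Their median transcript was 976 bases long, and of all genes of 500 to 1000 bases 90.0% were higher in sham 2. All 34 proteasome genes reached 1 FPKM, with a median of 78.3 FPKM and a range from 4.59 to 248 FPKM, led by Psmb4 with 248 ± 71.4, Psma7 with 193 ± 47.9 and Psmb1 with 182 ± 31.8 FPKM. Among chaperones Hsp90ab1 had 801, 875 and 781 FPKM, Hsp90aa1 381 ± 13.5 FPKM, Hspb8 265 ± 32.3 FPKM and Hspa8 239.9 ± 8.51 FPKM. The small heat shock gene Hspb1 had 24.9, 82.9 and 32.8 FPKM, high in sham 2 alone, with a mean of 28.9 FPKM without it.

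Genes known for the response to nerve injury were measured in these sham animals too. Gap43, a growth-cone protein that uninjured nociceptors also make, had 266, 317 and 245 FPKM. Sprr1a had 88.9, 110.3 and 72.3 FPKM, Atf3, an injury-induced transcription factor, 50.9, 64.6 and 36.1 FPKM, and galanin (Gal) 53.5, 86.4 and 50.4 FPKM. These 4 were highest in sham 2, and every library of each lay above the median gene at 8.81 FPKM. Over the whole list of injury genes 22 were measured, with a median of 22.1 FPKM, and 11 of the 20 members of at least 1 FPKM were higher in sham 2. The median transcript of these 20 was 1920 bases long, and of all genes of 1000 to 2000 bases 82.7% were higher in sham 2. Members below the median gene included Car3, Anxa1 and Socs3, with 5.36 ± 0.145, 4.21 ± 1.07 and 3.82 ± 0.454 FPKM. Atf3 stood at rank 1384 of the genes. Stat3, a relay of cytokine signals, had 109.8, 108 and 111 FPKM and was steady. Il6 and Arg1 stood at 0.287 ± 0.0783 and 0.215 ± 0.0560 FPKM. In comparison, immediate early genes were low, with a list median of 2.52 FPKM, led by Dusp1, Nr4a1 and Ier3 with 14.1 ± 1.1, 14 ± 1.13 and 13.8 ± 1.23 FPKM. Fos stood at 1.84, 1.81 and 2.23 FPKM, Arc at 2.88, 2.57 and 2.81 FPKM and Egr1 at 2.67, 3.54 and 3.99 FPKM. Whether the sham operation moved any of these genes cannot be read from the sham libraries alone.

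Many genes were split over several isoforms. Of the 12218 genes 10166 had at least 2, with a median of 4 over all genes and at most 23. The largest isoform held more than 50% of the gene in 6772 of the 10166 (66.6%) and more than 80% in 2002 (19.7%). It was the same isoform in all 3 libraries for 7349 genes (72.3%). Sham 1 and sham 3 shared it in 87.0% of genes, and sham 2 shared it with them in 77.0% and 77.9%. Isoforms assembled by the authors' pipeline, rather than taken from a reference, held 56.6%, 56.8% and 56.5% of the summed FPKM. In 2382 genes (23.4%) the largest isoform was shorter than 50% of the gene's longest.

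Levels of Scn10a and Ret rested largely on short isoforms. In Scn10a the largest isoform had 3 exons and 1906 bases and held 168 of the 265 FPKM, while an isoform of 28 exons and 6472 bases held 36.4 FPKM. In Ret an isoform of 3 exons and 936 bases held 150.5 of its 304 FPKM, and one of 20 exons and 5696 bases held 55.1 FPKM. The merged-exon scale gave 74 FPKM for Scn10a and 111 FPKM for Ret.

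Alternative last exons divided several receptors and channels. Ntrk2 is known for a full-length form with a kinase and a truncated form that ends earlier. The 3 isoforms that end at chr13:59033384-59038365 in mm9 held 59.0%, 63.4% and 67.5% of the gene, and the 4 that end further downstream, at chr13:59229529-59235506, held the remainder, 36.7% ± 4.25. The upstream end was the larger in every library. In Gria2, an AMPA receptor subunit, the 2 ends held 44.1% ± 2.05 and 55.9% ± 2.05. In Scn9a the end at chr2:66318002-66322661 held 83.3% ± 6.15, and an end further along, at chr2:66108585-66112119, the other 16.7%. That further end belonged to 1 assembled isoform, the one that runs through Scn1a. Its share cannot be told apart from fragments of Scn1a and is uncertain as an end of Scn9a. All 12 Calca isoforms ended in the same last exons at chr7:121775043-121775419. Calcitonin, the other product of that gene, is known to end at an earlier exon.

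**Figure D5:**
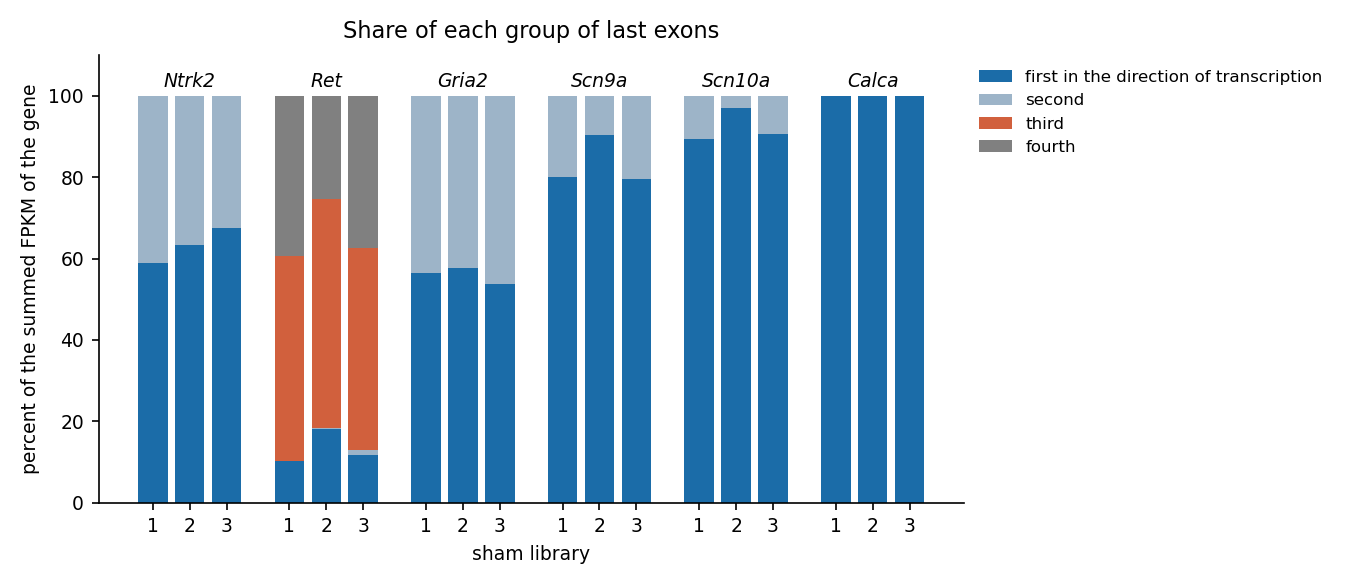
Share of a gene's summed FPKM, in percent, held by isoforms that end in each group of last exons, with 1 bar for each sham library and colours in the direction of transcription. The first end of Ntrk2 holds more than 50% in all 3 libraries, sham 2 stands apart in Ret, Scn9a and Scn10a, and Calca has a single end.

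Single genes also set the libraries apart. The SD over genes of the log2 difference from the other libraries was 0.22 for sham 1, 0.36 for sham 2 and 0.19 for sham 3. Sham 2 differed from the others by more than 1 on the log2(FPKM + 1) scale for 164 genes, 53 higher and 111 lower, against 27 genes for sham 1 and 24 for sham 3. Among genes of at least 5 FPKM, Nol3 was lowest in sham 2, with 9.31, 0.0863 and 6.61 FPKM, followed by Pygo2, a Wnt pathway co-factor, with 11.2, 1.81 and 12.5 FPKM. The synaptic vesicle gene Sv2c had 24.2, 6.12 and 19.1 FPKM, and synemin (Synm), an intermediate filament protein, 38.6, 10.1 and 33.9 FPKM. Of the genes higher in sham 2, Rpl37 had 3.42, 20.8 and 5.10 FPKM and the membrane protein Tmbim6 21.5, 66.6 and 24.4 FPKM. Without sham 2 the mean of Rpl37 was 4.26 FPKM and that of Tmbim6 23.0 FPKM. Ptgds, a prostaglandin synthase also made by meningeal cells, was high in sham 3 alone, with 5.87, 8.59 and 25.1 FPKM. Once the median difference of each length bin was taken off, 143 genes still differed by more than 1 in sham 2, and the SD was 0.30.

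The order of levels held within families where gaps were large. Over all 42 lists, 282 of 932 neighbouring pairs were ordered without overlap, and 452 had the same order in all 3 libraries. With sham 2 left out 592 pairs were ordered; ranges over 2 libraries are narrower than over 3 by construction. Of the sodium channel pairs 9 of 13 were ordered and of the tubulin pairs 7 of 10. Among ribosomal protein genes 2 of 58 pairs were ordered and 17 had the same order in all 3 libraries, and among oxidative phosphorylation genes 3 of 44 were ordered and 18 had the same order.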

How the data were processed

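RNA of laser-cut ganglion neurons was sequenced as barcoded poly-A libraries on 3 lanes, and the 3 sham libraries were used. The authors deposited isoform FPKM with lower and upper bounds. TopHat 1.3.2, Cufflinks 1.1.0, Cuffdiff 1.2.1 and the mouse build mm9 are named per the submitters' processing notes. FPKM depends on the isoform models and keeps no depth, so no counting interval could be given. Isoforms were summed per gene name with Python 3.11.15, pandas 2.3.3 and numpy 2.4.6, figures were drawn with matplotlib 3.10.9, and the summing was tested on simulated data. A list member counted as measured where its name was in the file, and list medians are over these members. Differences between libraries were counted over genes with a mean of 1 FPKM or more. Differences between libraries used log2(FPKM + 1), with a pseudocount of 1. Of the 60744 isoforms, 3081 had a status other than OK in some library and were kept. No statistical test was made, because the sham libraries form 1 group.

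Named genes were the 25 of highest mean, the 4 highest members of each of 42 lists, whole families of up to 20 members, and the genes that differed most between libraries at 5 FPKM or more. Other list members were named for their role after their values were seen. The members and lists were chosen with earlier results of these data known. Promoters came from RefSeq, build GRCm38.p6. Gene names absent from the files used are not analysed here, and some genes that this rule names are not reported here.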

Additional observations from a re-analysis of the deposited data

How the results depend on the processing

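No paired analysis was possible because only 1 group was used and no test was run. Genes were compared within the same 3 libraries. Leaving out each sham library in turn gave 12192 to 12263 genes of at least 1 FPKM, a share of the 10 most abundant genes of 4.36% to 4.97%, a pan-neuronal median of 284 to 311 FPKM, a median over the satellite glia and Schwann lists (the glial median) of 12.4 to 14.7 FPKM, 66.2% to 67.7% of genes with 1 isoform above 50%, a lowest pairwise r of 0.977 to 0.996, and 336 to 592 ordered pairs against 282. The r of 0.996 and the 592 pairs were found without sham 2. With reference isoforms only, the share of the 10 genes was 5.94%, the pan-neuronal median 14.4 FPKM against 299, the glial median 3.25 FPKM against 13.4, the lowest r 0.944 and the share with 1 isoform above 50% 96.2%. Genes without a reference isoform counted as 0 under this setting, which lowers these medians. Over genes that have one, the median was 26 FPKM for 17 pan-neuronal, 10.2 FPKM for 14 satellite glia and 2.56 FPKM for 14 Schwann genes. A limit of 80% gave 19.7% of genes against 66.6%. Rescaled to the fixed total of TPM values in each library, the pan-neuronal and glial medians were 890.4 and 40.5. Those values are parts of that total and not FPKM, so they are not set against 299 and 13.4 FPKM. On the merged-exon scale, chosen after seeing the data, the medians were 185 and 9.32 FPKM, and as a mean of logs 204 and 20.1 FPKM. The pan-neuronal median stood above the glial one under each of these. The number of genes of at least 1 FPKM was 8447 with reference isoforms only and 11559 on the merged-exon scale. Of 188 named genes, 123 moved by more than their SD on the merged-exon scale and 154 with reference isoforms only, and of 42 list medians 4 did without sham 2. Depth is unknown, so low levels carry an error that cannot be given beyond the deposited intervals.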
